A study of Mus musculus with 2 samples.

Results

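The 10 genes described here encode cell adhesion molecules of the immunoglobulin superfamily that sit on axons: Ncam1 and Ncam2, the L1 family (L1cam, Chl1, Nrcam and Nfasc), the contactins Cntn1 and Cntn2, Dscam and Alcam. They were taken by name and matched by gene identifier, and all 10 were found among 43346 genes. Total RNA longer than 200 nt was sequenced from the hindbrain of B6NCrl mouse embryos at 14.5 days of gestation, in 2 libraries made from 10 ng of RNA each with added spike-in RNAs. The labels call each sample 1 hindbrain of 1 pup, with different collection dates, and yet give the sex as pooled and 1 donor identifier for both. Both samples form 1 group with no allele or treatment. Each replicate has its own collection date, so an effect of date cannot be told apart from the difference between replicates, and the data describe levels, transcript forms and the spread between 2 replicates.

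Immunoglobulin adhesion molecules carry extracellular immunoglobulin domains, followed in most members by fibronectin type III repeats, and bind copies of themselves or each other on neighbouring membranes. In the embryonic brain they hold growing axons in bundles, guide them and support their extension. L1 family members are anchored to the spectrin skeleton through ankyrins, contactins are held by a lipid anchor, and NCAM carries polysialic acid chains that weaken adhesion while axons grow. Many of these proteins exist in several forms made by alternative splicing of short exons.

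The exons below were printed because the transcripts of 5 of the 10 genes differ by them and the transcript results turn on them. Capitals mark the alternative coding exon and lower case the 12 bases on either side of it in the spliced transcript, read 5′ to 3′ on the coding strand from GENCODE M21 (GRCm38).
L1cam 12 nt exon: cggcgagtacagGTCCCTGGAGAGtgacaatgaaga
L1cam 15 nt exon: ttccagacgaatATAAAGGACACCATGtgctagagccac
Ncam1 30 nt exon: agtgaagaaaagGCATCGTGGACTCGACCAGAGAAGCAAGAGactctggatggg
Ncam1 15 nt exon: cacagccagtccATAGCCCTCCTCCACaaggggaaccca
Nrcam 30 nt exon: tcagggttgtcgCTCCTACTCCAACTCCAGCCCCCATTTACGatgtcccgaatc
Nrcam 36 nt exon: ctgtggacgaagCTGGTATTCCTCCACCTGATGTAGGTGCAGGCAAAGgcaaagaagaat
Nfasc 18 nt exon: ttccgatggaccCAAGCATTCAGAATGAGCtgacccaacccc
Nfasc 51 nt exon: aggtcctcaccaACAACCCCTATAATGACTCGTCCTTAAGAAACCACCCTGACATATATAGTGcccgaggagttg
Alcam 39 nt exon: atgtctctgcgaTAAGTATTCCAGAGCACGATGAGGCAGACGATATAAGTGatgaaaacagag
The L1cam exons lie at chrX:73855652-73855663 and chrX:73867022-73867036 on the minus strand. Those of Ncam1 lie at chr9:49550540-49550569 and chr9:49541888-49541902 on the minus strand, and those of Nrcam at chr12:44566840-44566869 and chr12:44578145-44578180 on the plus strand. Those of Nfasc lie at chr1:132637864-132637881 and chr1:132627872-132627922, and that of Alcam at chr16:52268790-52268828, all on the minus strand. Each has a length divisible by 3, so its loss keeps the reading frame.

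The libraries held 34929425 and 33510896 expected counts, and the 10 genes took 0.242% of the counts assigned to genes in replicate 1 and 0.270% in replicate 2. Intervals below are the authors' deposited credibility bounds and cover the assignment of reads, not the spread between embryos. Of the 6 hindbrain genes listed, 5 reached 1 TPM in both replicates, with Gbx2 at 33.4 and 33.3 TPM. All 6 had a lower TPM in replicate 2, where 60.0% of detected genes had a higher one. Their median log2 ratio of replicate 2 over replicate 1 was -0.23, and Hoxa2, at 28.3 and 22.7 TPM, had separate intervals. The forebrain gene Emx1, named after its values were seen, had 0 counts in both libraries, which by counting error alone allows up to 0.0859 and 0.0895 CPM, the level of 3 counts. All 6 neuronal, 5 radial glial, 6 oligodendrocyte lineage, 4 endothelial, 5 meningeal and 4 microglial markers passed, as did 4 of 5 Schwann cell or cranial ganglion, 2 of 3 choroid plexus and 1 of 4 skeletal muscle markers. The same limit was passed by 34.8% of all genes and 62.5% of protein-coding genes, so a passing marker alone says little about a cell type. Levels are those of whole hindbrain tissue, a mixture of cells, and fewer cells of a type cannot be told apart from less RNA per cell.

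All 10 genes were expressed. Each had at least 1 TPM in both replicates, a level reached by 34.8% of all genes and 62.5% of protein-coding genes. All 10 also had at least 5 TPM in both, against 50.4% of protein-coding genes, and 9 had at least 10 TPM. Their summed level was 737.4 ± 75.7 TPM (SD, n = 2), of which the NCAM pair and the L1 family held nearly equal parts, 291.7 ± 28.3 and 290.6 ± 26.6 TPM. Over protein-coding transcripts only, an alternative chosen after seeing the data, the NCAM pair kept 291.7 ± 28.3 TPM and the L1 family had 246.01 ± 31.5 TPM. The contactins held 91.9 ± 15.2 TPM, and Alcam and Dscam the rest. TPM is a length-normalised share of all transcripts, so these levels can be compared between genes. Noncoding transcripts add to it, most for L1cam, Nfasc and Cntn2, so comparisons of these genes depend on whether such transcripts are counted.

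Ncam1 (ENSMUSG00000039542.11, chr9:49502136-49798925, minus strand), which encodes the neural cell adhesion molecule, was the highest of the 10. It stood at 246.4 TPM in replicate 1 and 282.2 TPM in replicate 2, on 31552 and 33026 expected counts, and ranked 586 and 501 among all genes. Its relative Ncam2 (ENSMUSG00000022762.13, chr16:81200697-81626828, plus strand), known for sorting olfactory axons, had 25.3 and 29.6 TPM. Ncam1 exceeded Ncam2 in both libraries by many times the spread between replicates.

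In the L1 family, L1cam led. L1cam (ENSMUSG00000031391.14, chrX:73853778-73896105, minus strand), which supports axon growth and bundling, had 109.9 and 122.3 TPM. Chl1 (ENSMUSG00000030077.9, chr6:103510586-103750211, plus strand), the close homolog of L1, had 72.1 and 83.2 TPM. Nrcam (ENSMUSG00000020598.11, chr12:44328885-44601964, plus strand), which acts in axon guidance and later at nodes of Ranvier, had 56.3 and 68.8 TPM. These genes came in the same order in both libraries and their credibility intervals did not overlap within either. Nfasc (ENSMUSG00000026442.10, chr1:132564690-132741797, minus strand), the neurofascin gene, whose forms organise nodes and the axon initial segment, was the lowest of the family at 33.4 and 35.2 TPM.

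Cntn1 (ENSMUSG00000055022.10, chr15:92051165-92341967, plus strand), a partner of Caspr and sodium channels on axons, had 60.6 and 80.1 TPM. Cntn2 (ENSMUSG00000053024.10, chr1:132509427-132543256, minus strand), also called TAG-1 and known from outgrowing commissural axons, had 20.6 and 22.5 TPM. Cntn2 lies 21.4 kb from Nfasc on the same strand. Alcam (ENSMUSG00000022636.9, chr16:52248996-52454074, minus strand), an adhesion molecule of axons that also occurs on endothelium and immune cells, had 50.2 and 56.9 TPM. Dscam (ENSMUSG00000050272.9, chr16:96590840-97170752, minus strand), which keeps processes of like neurons apart and acts as a netrin receptor, was the lowest at 8.97 and 10.2 TPM. With a genomic span of 579.9 kb Dscam is also the longest gene of the 10, and it rested on 1419 and 1469 expected counts.

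**Figure D1:**
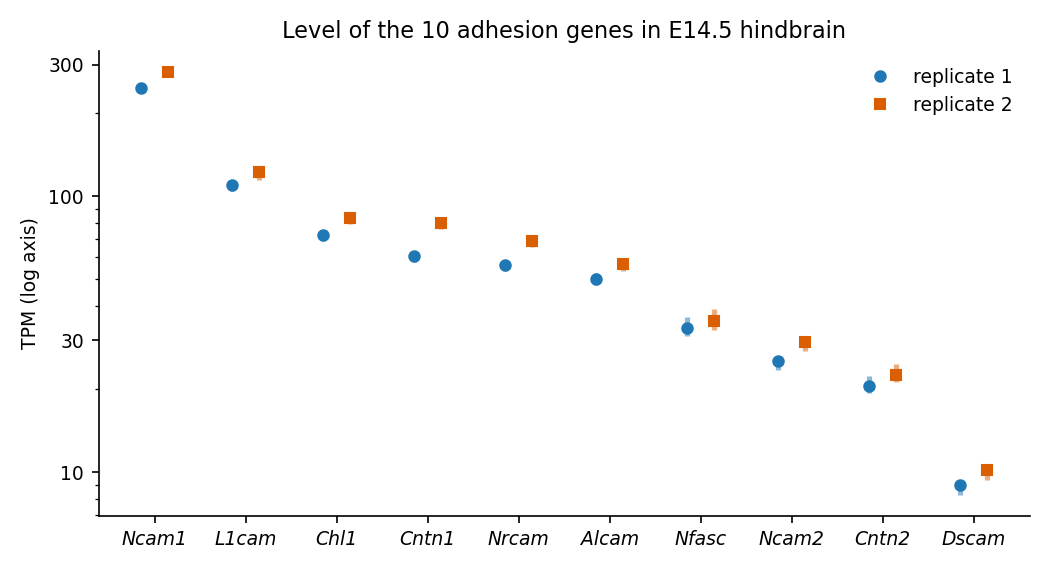
TPM of each gene on a log axis in replicate 1 (circles) and replicate 2 (squares), in order of mean level, with deposited credibility bounds as vertical lines where they reach past the symbol. The order is the same in both libraries, with Ncam1 at the top at 246.4 and 282.2 TPM and Dscam at the bottom at 8.97 and 10.2 TPM.

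The order of the 10 levels was the same in both libraries: Ncam1, L1cam, Chl1, Cntn1, Nrcam, Alcam, Nfasc, Ncam2, Cntn2 and Dscam. Neighbours did not differ beyond their spread in 3 of 9 cases, Chl1 and Cntn1, Cntn1 and Nrcam, and Nrcam and Alcam, whose ranges over the replicates overlapped. Within a library, the intervals of neighbours overlapped once, for Chl1 and Cntn1 in replicate 2, where Chl1 ran from 79.4 to 82.2 TPM and Cntn1 from 76.1 to 79.7 TPM. Ncam1 was 2.24 and 2.31 times L1cam in the 2 libraries, and Cntn2 was 2.29 and 2.22 times Dscam. The place of L1cam above Chl1 depended on short noncoding fragments: its protein-coding transcripts alone had 70.6 and 89.2 TPM, a range that takes in both values of Chl1. The place of Nfasc above Ncam2 depended on noncoding transcripts as well. Protein-coding transcripts of Nfasc alone had 24.8 and 27.0 TPM, below Ncam2 in both libraries, at 25.3 and 29.6 TPM, all of it protein coding.

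The annotation lists 54 transcripts for these genes, 35 of them protein coding and 14 with a retained intron. At least 1 TPM in both replicates was reached by 30 transcripts, against 29.6% of all annotated transcripts, and 22 of the 30 were protein coding, 7 had a retained intron and 1 was a nonsense-mediated decay transcript. The leading transcript was the same in both replicates for all 10 genes. Chl1 and Dscam have 1 annotated transcript each, so their agreement was fixed in advance and nothing can be said here of their forms. Transcript levels are the authors' apportionment of reads among the annotated models, and forms outside the M4 annotation were not analysed here.

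Ncam1 was carried mainly by a pair of coding transcripts, in like proportion in both libraries. Ncam1-204, with a coding sequence of 2544 nt, had 155.6 and 178.1 TPM, or 63.2% and 63.1% of the gene. Ncam1-205 had 80.7 and 92.4 TPM, or 32.7% in both replicates. Ncam1-205 holds an exon of 801 nt (chr9:49506853-49507653) near its 3′ end that the other long forms skip, and the annotation lacks the start of its coding sequence. NCAM is known in 3 main forms, a pair with transmembrane segments, of which the longer has an extra cytoplasmic part, and one with a lipid anchor.

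The printed Ncam1 exons of 30 and 15 nt and a 3 nt exon occur in Ncam1-205 alone among the transcripts with reads. Their shares, 32.7% in both replicates, therefore equal that of this 1 model and cannot be read apart from the 801 nt exon, which stood at 33.3% and 33.2% because fewer coding transcripts span it. The 30 nt exon is the one known as VASE, within an immunoglobulin domain, which is known to be used more in the adult than in the embryonic brain. The short form Ncam1-201, whose coding part ends before the last exons of the long forms, had 3.27 and 3.65 TPM, or 1.33% and 1.29% of the gene. Ncam1-202, with 3 coding bases more than Ncam1-204, had 6.24 and 7.64 TPM.

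Ncam2 was mostly in its longer form. Ncam2-202, with a coding sequence of 2511 nt, had 22.9 and 27.2 TPM, or 90.7% and 91.9%. Ncam2-201, with 2181 nt and another 3′ end of the coding sequence, had 2.35 and 2.40 TPM. The long form was higher in replicate 2, as the gene was, and its intervals did not overlap, 21.2 to 23.5 TPM in replicate 1 and 25.1 to 27.7 TPM in replicate 2.

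The largest difference between the replicates in the share of a single transcript was that of L1cam-202, with 6.62% and 17.1% of L1cam. L1cam-203, which skips the 12 nt exon, led with 63.2 and 67.9 TPM, or 57.5% and 55.5% of the gene. L1cam-202, which holds the exon, had 7.28 TPM with an interval of 3.54 to 9.39 in replicate 1, and 20.9 TPM with an interval of 16.0 to 25.9 in replicate 2. Of the coding transcripts that span the exon, 10.3% held it in replicate 1 and 23.4% in replicate 2. L1cam-202 and L1cam-203 also differ outside the coding sequence, with total lengths of 5113 and 5126 nt, so reads of those parts bear on the split as well.

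The 12 nt exon lies in the part of L1cam that encodes the cytoplasmic tail, and is known as the neuronal exon whose 4 residues take part in endocytosis by the clathrin adaptor. The 15 nt exon near the start of the coding sequence, also known from neurons, was held by 99.9% and 99.5% of spanning coding TPM. L1cam-201, which skips both exons, had 0.08 and 0.49 TPM. The pair of exons known from neuronal L1 thus stood at very different shares in the same libraries.

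Short retained-intron transcripts took a large part of L1cam TPM and a small part of its reads. The 6 annotated ones summed to 39.4 and 32.7 TPM, 35.8% and 26.8% of the gene, but to 7.23% and 4.80% of its expected counts. L1cam-209, a fragment of 705 nt and the second most abundant transcript of the gene by mean TPM, had 25.1 and 21.6 TPM on 325.5 and 255.3 counts. TPM divides by length, which lifts such fragments, and whether they are molecules of their own or parts of unspliced RNA was not tested. L1cam also shares up to 100 bases of exon with Arhgap4 on the same strand, which had 2.36 and 2.46 TPM.

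**Figure D2:**
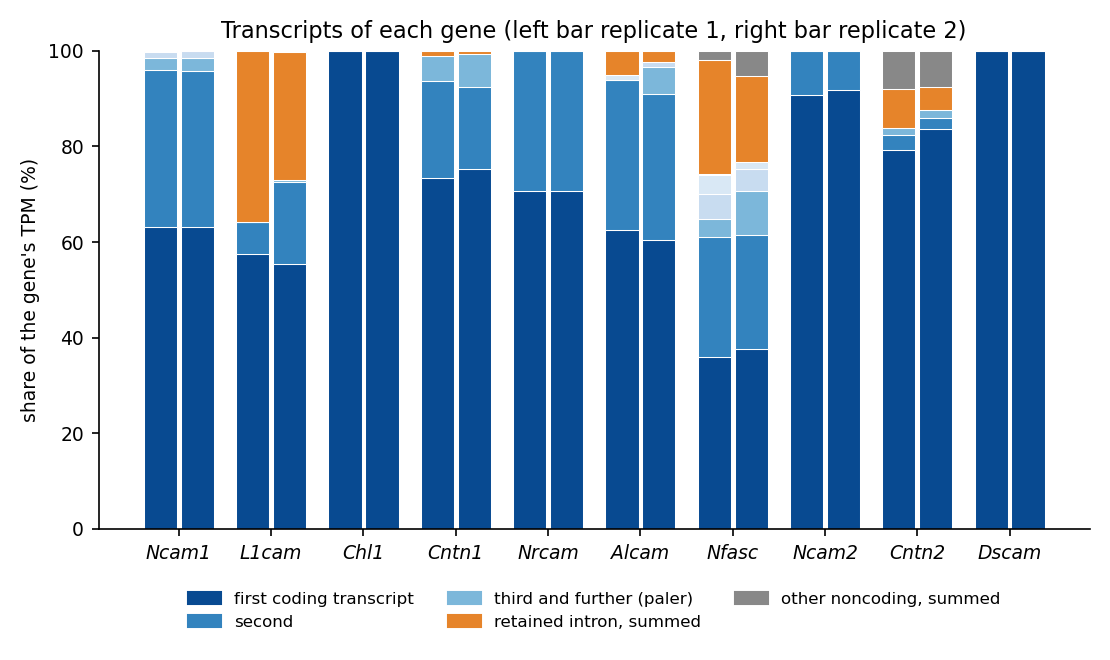
Share of each gene's TPM held by its transcripts, with replicate 1 as the left and replicate 2 as the right bar of each pair; blue parts are protein-coding transcripts in order of mean level, orange is the sum of retained-intron transcripts and grey that of other noncoding transcripts. L1cam and Nfasc have the largest orange parts, 35.8% and 26.8% for L1cam and 23.9% and 17.9% for Nfasc, while Ncam1, Ncam2, Nrcam, Chl1 and Dscam have none.

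Nrcam divided between its forms alike in both replicates. Nrcam-201, with 3768 nt of coding sequence, had 39.8 and 48.7 TPM, or 70.6% and 70.8% of the gene. Nrcam-202, with 3558 nt, had 16.5 and 20.1 TPM. They differ by 3 coding exons of 30, 36 and 153 nt that come together in Nrcam-201, so the 3 exons share the value of that 1 model. Both models had other lengths in M21 than in the deposited files.

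The leading transcript of Nfasc held the lowest share among the 10 genes. Nfasc-202, with 3720 nt of coding sequence, led with 12.0 and 13.2 TPM, or 36.02% and 37.5%. Nfasc-208, whose coding part ends early at 2697 nt, followed with 8.39 and 8.44 TPM, or 25.1% and 24.0%. The retained-intron fragment Nfasc-206 had 5.14 and 4.45 TPM, or 15.4% and 12.6% of the gene, on 71.5 and 56.6 counts. These 3 transcripts kept their order in both libraries. A longer retained-intron transcript, Nfasc-210, had 2.85 and 1.86 TPM with separate intervals, lower in replicate 2. The other 10 of the 30 detected transcripts with separate intervals were higher in replicate 2. The matching share over all transcripts was not computed. Among detected genes, which are another unit, intervals lay entirely higher in replicate 2 for 18.4% and entirely lower for 6.38%.

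Among coding Nfasc transcripts, exons of 237, 117 and 153 nt were held together by 80.9% and 88.4% of spanning TPM. Exons of 116 and 205 nt were held by 26.6% and 28.9% of the TPM of transcripts that hold or skip them. Nfasc-208, at 8.39 and 8.44 TPM, is not in these shares. Its coding part spans the 116 nt exon but has an overlapping exon of other bounds there, and it ends before the 205 nt exon. Neurofascin is known in a neuronal form with a mucin-like segment and a glial form with an additional fibronectin repeat. No protein sequences were used here, so the exons were not assigned to these segments. The 18 nt exon was held by 56.6% and 60.8%, and the 51 nt exon by 12.5% and 6.11%. The 51 nt share rests on Nfasc-203 and Nfasc-205, the second of which had 1.36 TPM in replicate 1 and 0 in replicate 2, with an upper bound of 2.48 and 1.04 TPM.

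Alcam came mainly in a form with the 39 nt exon. Alcam-201, which holds it, had 31.4 and 34.3 TPM, or 62.4% and 60.4%, and Alcam-207, which skips it, had 15.8 and 17.4 TPM, or 31.4% and 30.6%. Over all spanning coding transcripts the exon was held by 66.6% and 68.6%. Alcam-205, an incomplete model, had 0.06 TPM in replicate 1 and 3.16 TPM in replicate 2, with overlapping intervals of up to 2.58 TPM in replicate 1 and from 0.997 TPM in replicate 2.

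The contactins showed few coding differences. The 3 coding transcripts of Cntn1 share 1 coding sequence of 3060 nt and differ outside it. Cntn1-204 had 44.4 and 60.3 TPM, or 73.3% and 75.3%, Cntn1-202 had 12.3 and 13.8 TPM, and Cntn1-201 had 3.21 and 5.53 TPM. Cntn2-201, with 3120 nt of coding sequence, held 79.3% and 83.5% of Cntn2 at 16.3 and 18.8 TPM. The nonsense-mediated decay transcript Cntn2-207 had 1.65 and 1.72 TPM, and the retained-intron transcript Cntn2-202 had 1.27 and 0.88 TPM. All other Cntn2 transcripts lay below 1 TPM in both libraries.

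**Figure D3:**
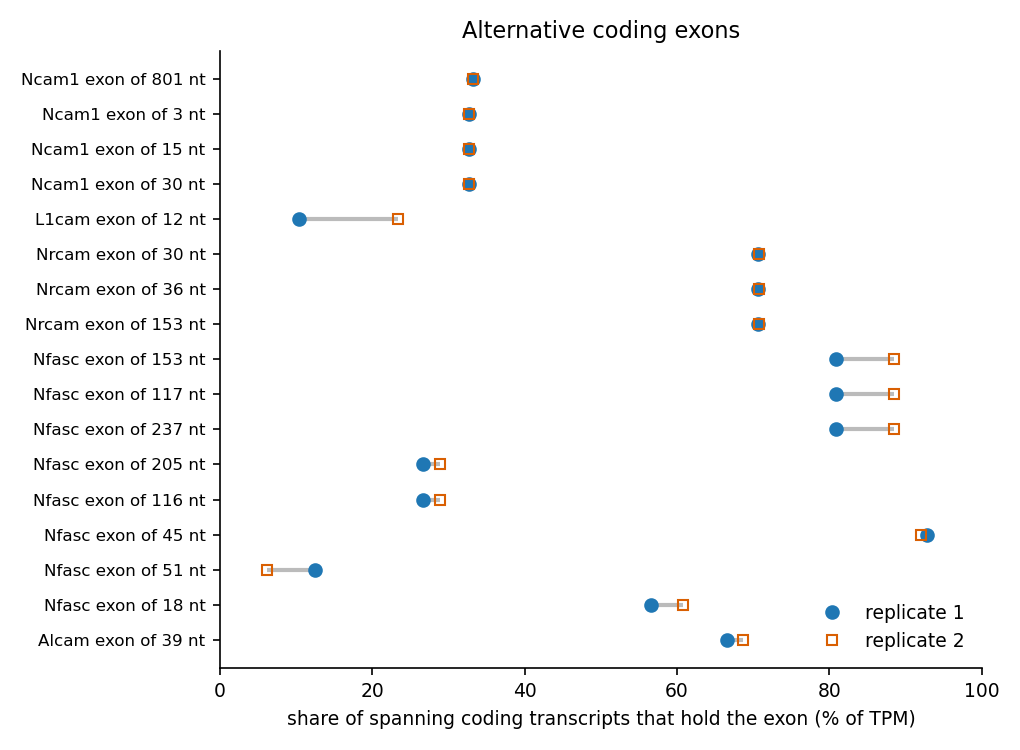
Share of spanning coding TPM that holds each alternative exon, in replicate 1 (filled circles) and replicate 2 (open squares), for exons between 1% and 99% in both libraries. Transcripts with an overlapping exon of other bounds are left out. The L1cam exon of 12 nt has the widest gap, 10.3% and 23.4%, and exons of 1 model with the same spanning transcripts, as the 3 of Nrcam, fall on the same value.

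Every one of the 10 genes had a higher TPM in replicate 2, as did 60.0% of 15088 detected genes. The log2 ratios of TPM + 1, replicate 2 over replicate 1, ran from 0.07 for Nfasc to 0.40 for Cntn1, with a median of 0.19. Over all detected genes the median was 0.05, the middle 50% ran from -0.09 to 0.16, and the SD was 0.24. The 10 genes were also higher in replicate 2 with counts scaled by library total, TMM factors, DESeq2 size factors or spike-in total, with medians from 0.13 to 0.25, against medians from -0.01 to 0.11 of all detected genes under the same scalings.

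The deposited intervals lay entirely higher in replicate 2 for 7 of the 10 genes, Ncam1, Ncam2, Chl1, Nrcam, Dscam, Alcam and Cntn1, against 18.4% of detected genes. None lay entirely lower, against 6.38% of detected genes. The intervals of L1cam, Nfasc and Cntn2 overlapped. The log2 ratios of these genes were 0.15, 0.07 and 0.13. Over protein-coding transcripts only, an alternative chosen after seeing the data, they were 0.33, 0.12 and 0.18, and intervals were not computed for those sums. The deposited intervals leave out the variation between embryos, and a gene with many reads has a narrow one, so the count describes these libraries and not a condition. For Cntn1, the largest ratio, the intervals were 57.6 to 60.6 TPM in replicate 1 and 76.1 to 79.7 TPM in replicate 2, a 1.32-fold difference, and 0 of the 10 genes differed by at least 1.5-fold, against 2.02% of detected genes higher and 3.06% lower in replicate 2. With intervals of FPKM in place of TPM, 5 of the 10 were separate, and the share of all detected genes was not computed for FPKM.

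**Figure D4:**
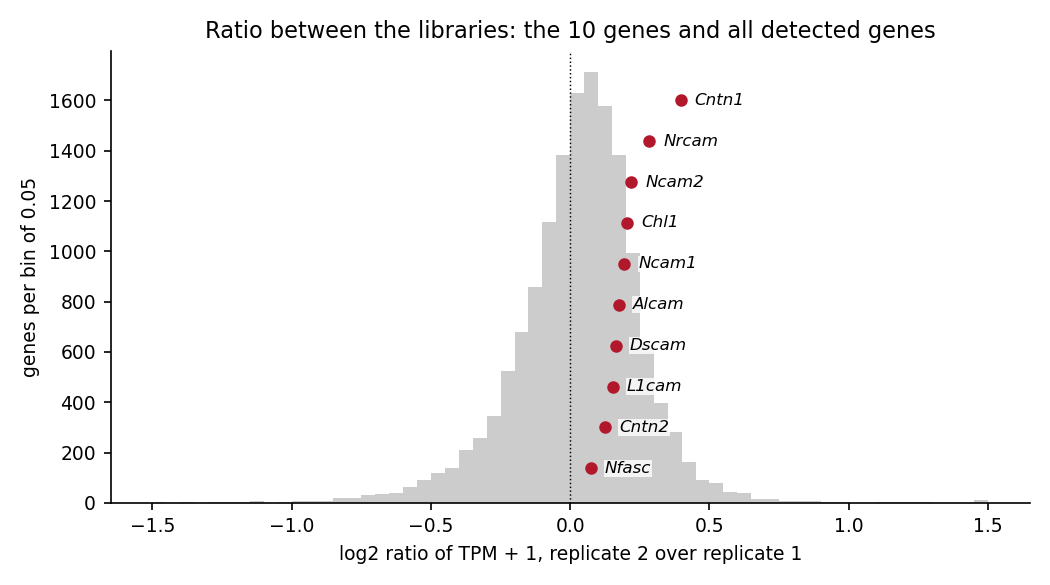
Replicate 2 over replicate 1 as a log2 ratio of TPM + 1, shown for the 10 genes (red points, stacked by rank so that their height has no meaning) over the histogram of all detected genes (grey, bins of 0.05, with values beyond 1.5 placed in the end bins). All 10 points lie right of 0, from 0.07 to 0.40, where the median of all detected genes is 0.05.

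Marker lists moved between the same libraries, and their part in these differences was not tested. The 6 neuronal markers summed to 2957 TPM in replicate 1 and 3078 TPM in replicate 2, with a median log2 ratio of 0.06, below that of the 10 genes. The 6 oligodendrocyte lineage markers summed to 140.2 and 175.8 TPM, with a median of 0.29. The 5 meningeal or fibroblast markers summed to 730.4 and 605.2 TPM. All 5 were lower in replicate 2 with separate intervals, against 6.38% of detected genes. The 3 choroid plexus markers summed to 1880 and 1130 TPM, mostly from Ttr at 1825 and 1094 TPM. Of these 3 markers, 2 had intervals entirely lower in replicate 2 and 1, Kl at 0.89 and 1.47 TPM, entirely higher. The 4 endothelial markers, of a cell type that also has Alcam, summed to 144.8 and 141.2 TPM, and the radial glial markers to 2472 and 2486 TPM. Most of the radial glial sum was Fabp7, at 1847 and 1806 TPM. Of the 5 radial glial markers, 2 had intervals entirely higher and 1, Fabp7, entirely lower in replicate 2, where 18.4% and 6.38% of detected genes did. None of these lists had all its defining markers at 0, and the 4 markers of skeletal muscle, which also has Ncam1, summed to 6.78 and 5.34 TPM, with Myod1 at 0.08 and 0.09 TPM.

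Related genes were expressed as well. All 55 genes of 9 lists, which hold other adhesion genes of the superfamily and genes that modify, bind, anchor or cleave such molecules, had 1 TPM or more in both replicates, against 34.8% of all genes and 62.5% of protein-coding genes. The polysialyltransferases, which put polysialic acid on NCAM, were St8sia2 at 81.2 and 88.9 TPM and St8sia4 at 39.6 and 45.2 TPM. Both had separate intervals, higher in replicate 2, as did 18.4% of detected genes. St8sia2 is known as the main enzyme of the embryonic brain, and it was the higher in both libraries.

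All 7 ankyrin and spectrin genes, which anchor the L1 family, were detected. Sptan1 stood at 209.8 and 229.5 TPM, Sptbn1 at 164.3 and 178.0 TPM and Ank3 at 105.7 and 101.3 TPM. Sptbn4, the spectrin of nodes and initial segments, named after its values were seen, was much lower at 3.24 and 3.18 TPM. Of the 7 genes, 2 had intervals entirely higher and 1 entirely lower in replicate 2, where 18.4% and 6.38% of detected genes did, and the median log2 ratio was -0.01.

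Binding partners of the contactins and their kin were led by matrix and surface proteins. The proteoglycan gene Ncan had 111.3 and 122.9 TPM, the tenascin gene Tnc 57.8 and 67.9 TPM, and the receptor phosphatase gene Ptprz1, a ligand of contactin 1, 40.8 and 53.7 TPM. Ptprz1 and Cntn1 were both entirely higher in replicate 2, and with 2 libraries no relation between them can be examined. The Caspr gene Cntnap1, named after its values were seen, stood at 5.11 and 4.88 TPM, well under Cntn1. The proteases that shed L1 family members were present, with Adam10 at 44.4 and 44.7 TPM, Bace1 at 39.7 and 44.3 TPM and Adam17 at 15.4 and 14.9 TPM.

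**Figure D5:**
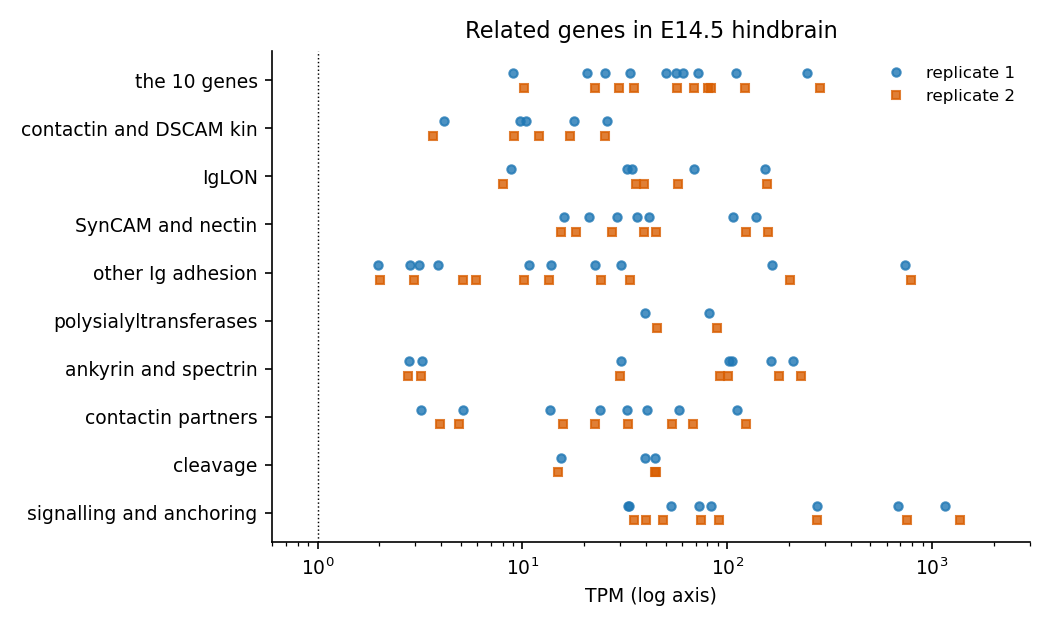
TPM on a log axis of the 10 genes and of each related list in replicate 1 (circles) and replicate 2 (squares), 1 point per gene; the dotted line marks 1 TPM. All 55 related genes lie right of the line in both libraries, from Sdk1 at 1.97 and 2.01 TPM to Gap43 at 1160 and 1366 TPM.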

How the data were processed

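Total RNA-seq of 2 hindbrain libraries was analysed at the level of genes and transcripts. Per the file headers and the text deposited with each library, the authors quantified each replicate on its own, on mm10 with GENCODE annotation M4. Which aligner and quantifier made the tables, and whether strand was used, is not given in the sources used. Expected counts, as the authors deposited them, are estimated numbers of reads per feature without normalisation. TPM was computed by the authors over all 69691 features, spike-in RNAs included, per the file headers. FPKM, also deposited, relates the reads to feature length and to the library's reads. The deposited credibility bounds, handled as score values, surround the authors' posterior mean, so that the TPM can lie outside them, and their level is not stated per the file headers. The deposited percent of a gene held by each transcript served as an alternative to shares recomputed from TPM.

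Identifiers were matched without version, for 42462 of 43346 genes, to GENCODE M21 (GRCm38, the same assembly as mm10), which also gave coordinates, transcript names, coding sequences and exon sequences. Gene models can differ from M4: 5 of the 54 transcripts had another length in M21. A gene or transcript with 1 TPM or more in each replicate was called detected. Log2 ratios are replicate 2 over replicate 1 with a pseudocount of 1. The share of an alternative exon is the TPM of coding transcripts that hold it, divided by that of all coding transcripts whose coding part spans it. Spanning transcripts with an overlapping exon of other bounds were left out of both. No test was made, since the labels give 1 group of 2 samples. The 10 genes and the related lists were chosen with earlier results of these data known. The text names all 10 genes, the 3 highest transcripts of each and any above 10% in both replicates, and the 3 highest genes of each related list; further exons and genes it names were chosen after their values were seen. Alternatives were other detection limits, FPKM, posterior means, other pseudocounts, TPM without spike-in or mitochondrial RNA, each replicate alone, and rounded expected counts scaled by total, edgeR 4.0.16 TMM factors, DESeq2 1.42.0 size factors or spike-in total. R 4.3.3, Python 3.11.15, numpy 2.4.6, pandas 2.3.3 and matplotlib 3.10.9 were used. Results for some listed marker genes are not reported here.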

Additional observations from a re-analysis of the deposited data

How the results depend on the processing

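All 10 genes were detected at a limit of 0.1 or 5 TPM, by FPKM, by posterior mean TPM and in each replicate alone, and 9 at 10 TPM. The 55 related genes were all detected at 0.1 TPM and in each replicate alone, and 46 at 5 TPM. Transcripts at or above the limit numbered 30, against 39 at 0.1 TPM, 18 at 5 TPM and 32 to 34 over single replicates. A fold of at least 1.5 between the replicates was shown by 0 genes, against 7 with separate TPM intervals; this is a count without a test. The summed level of 737.4 TPM became 836.5 TPM without spike-in and mitochondrial RNA, was 439.9 in FPKM, which is another unit, and ran from 683.9 to 790.9 TPM over single replicates. Over protein-coding transcripts only, an alternative chosen after seeing the data, the mean was 79.9 TPM for L1cam, 25.9 TPM for Nfasc and 18.5 TPM for Cntn2. No log2 ratio of the 10 genes changed sign under the scalings and pseudocounts tried. With 2 samples of 1 group, the spread between replicates rests on 1 difference per gene, and for L1cam, Nfasc and Cntn2 the deposited intervals of the replicates overlapped. No paired analysis was possible because the labels give a single group.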

Other observations

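Kin of the 10 genes outside the list were also expressed. The contactins Cntn4, Cntn5 and Cntn6 stood at 25.7 ± 0.375, 17.4 ± 0.495 and 11.3 ± 1.17 TPM (SD, n = 2), so that Cntn4 had a mean above that of Cntn2. Separate intervals between the replicates were found for 0 of 5 genes of this list, against 18.4% of detected genes higher and 6.38% lower. Cntn6 lies 742.6 kb from Chl1 on chromosome 6, and Cntn4 814.3 kb from Cntn6. The IgLON family, small lipid-anchored adhesion proteins of neurons, was led by Ntm at 154.9 ± 1.65, Lsamp at 63.1 ± 7.83 and Negr1 at 36.7 ± 3.49 TPM. Ntm was thus above 9 of the 10 genes described, and below Ncam1. Lsamp was lower in replicate 2, with 68.6 TPM in replicate 1 and 57.6 TPM in replicate 2.

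Among SynCAM and nectin genes, which join synapses and other cell contacts, Cadm1 stood at 148.5 ± 14.4, Cadm3 at 115.1 ± 12.4 and Cadm2 at 43.0 ± 2.43 TPM. Of the remaining immunoglobulin adhesion genes, Bsg, which encodes basigin and is known from vessels as well as neurons, was the highest at 761.5 ± 38.4 TPM, with Nptn at 184.3 ± 26.3 and Kirrel3 at 32.1 ± 2.30 TPM. In the list of signalling and anchoring genes, Gap43, a growth cone protein, stood at 1263 ± 146, the clathrin adaptor subunit Ap2m1 at 719.8 ± 49.7 and Dcx at 274.1 ± 1.64 TPM.

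The antisense gene Gm11149 overlaps Ncam1 exons by up to 151 bases and had 3.31 and 1.49 TPM in replicates 1 and 2; the strand setting of the counting is not given in the sources used here, so reads of the pair cannot be told apart.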
